A study of Mus musculus with 4 samples.

Results

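Selenoproteins carry the amino acid selenocysteine, which is inserted at UGA codons by a dedicated tRNA encoded by Trsp. This account concerns 8 of their genes: Selenof, Selenok, Selenos, Selenon, Selenoi and Dio2, whose products lie in the membrane or lumen of the endoplasmic reticulum (ER), and Selenoo and Selenov, whose products do not. They were found as the probes annotated to 1 of these genes alone, which gave 12 of 15478 probes and 8 of 9285 named genes. Selenof had 3 probes, Selenos and Selenoi had 2 each, and the other 5 genes had 1 each.

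The livers came from male mice of mixed B6/FVB background aged 7 to 8 weeks, fed enough selenium. In A34 mice the transgene, present in 2 copies, encoded the tRNA with T34 replaced by A34. In G37H and G37L mice it encoded the tRNA with A37 replaced by G37, in 16 copies (G37H) or 2 copies (G37L). DTrsp mice lacked Trsp in the liver. Each was hybridised on 2-colour arrays against wild-type littermates, mutant RNA in Cy5 and wild-type RNA in Cy3, with 1 animal per array. The labels used here name neither the driver of the liver deletion nor the promoter of the transgenes, and do not say whether transgenic livers also lacked their own Trsp. No probe is named for Trsp, which leaves the deletion unchecked here.

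The deposited values are the authors' averages over 4 animals (A34, G37L and DTrsp) or 3 animals (G37H) per the labels, some of them over fewer as their decimals show, so no spread between animals enters and no test could be run. A value is the log2 ratio of mutant over wild type, a direction that the dye labels make likely but do not state. A turned ratio would change every sign and exchange highest and lowest. The sources used here do not state the logarithm's base, and a value of 1 is read as 2-fold. Because the columns are not centred on 0 (their medians over all genes were 0.07 in A34, -0.11 in G37H, -0.11 in G37L and 0.16 in DTrsp), each gene is also placed by its percentile, the percent of the 9285 genes at or below it, which no centring moves. The only spread given is the disagreement between probes of 1 gene, over the 2414 genes with 2 or more probes. Its pooled SD was 0.35 in A34, 0.38 in G37H, 0.37 in G37L and 0.48 in DTrsp. This is the SD of a single probe, not of a mean of several, and it does not measure the spread between animals. Signal levels were not used here, so it is unknown whether a probe was above background, and in whole liver fewer cells of a type and less RNA per cell cannot be told apart.

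The ER is where secreted and membrane proteins are folded, and it gives up misfolded ones for degradation in the cytosol, a route called ERAD. Selenof binds the glucosyltransferase that checks the folding of glycoproteins. Selenos, also called VIMP, and Selenok are small membrane proteins that join the ERAD machinery of derlins and the ATPase Vcp, and Selenok also serves protein palmitoylation. Selenon senses calcium in the ER and acts on its calcium pump, Selenoi makes phosphatidylethanolamine, and Dio2 converts the prohormone thyroxine to active thyroid hormone. Selenoo is a mitochondrial enzyme that attaches AMP to proteins, and Selenov is known mainly from testis. The A34 change alters the wobble base of the anticodon and the G37 change a base beside the anticodon. Both mutant tRNAs are known to lack a methyl group at the wobble position that stress-related selenoproteins need for their synthesis.

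The transcripts of ER chaperones are controlled in part through the ER stress response element, which reads CCAAT, then any 9 bases, then CCACG, and Selenos is known in human cells as a gene induced by ER stress. Selenos and Selenok had the highest values of the 8 genes in G37L, 0.50 and 0.61, both short of 2-fold. Many ER chaperones were also high in that line. Chosen by these values, the 250 bases before the RefSeq start sites of Selenos and Selenok (build GRCm38.p6) are shown beside those of the main ER chaperone, Hspa5. Whether any motif bears on the values was not tested. Selenos lies at chr7:66079399-66079648, Selenok at chr14:29968130-29968379 and Hspa5 at chr2:34771840-34772089, all on the plus strand. Capitals mark CCACG and CCAAT on either strand (CCAAT on the minus strand reads ATTGG) in the selenoprotein genes, and in Hspa5 the whole element.
Selenos: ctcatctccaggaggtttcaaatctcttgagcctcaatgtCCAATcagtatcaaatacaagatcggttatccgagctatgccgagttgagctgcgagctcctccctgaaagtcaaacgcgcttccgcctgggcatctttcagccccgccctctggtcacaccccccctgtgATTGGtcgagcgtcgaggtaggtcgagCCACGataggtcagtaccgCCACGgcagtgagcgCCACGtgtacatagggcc
Selenok: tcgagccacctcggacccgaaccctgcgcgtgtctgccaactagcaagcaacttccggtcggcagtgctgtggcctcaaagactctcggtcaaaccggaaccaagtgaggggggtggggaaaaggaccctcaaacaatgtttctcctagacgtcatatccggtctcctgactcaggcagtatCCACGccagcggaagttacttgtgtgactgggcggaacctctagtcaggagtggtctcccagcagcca
Hspa5: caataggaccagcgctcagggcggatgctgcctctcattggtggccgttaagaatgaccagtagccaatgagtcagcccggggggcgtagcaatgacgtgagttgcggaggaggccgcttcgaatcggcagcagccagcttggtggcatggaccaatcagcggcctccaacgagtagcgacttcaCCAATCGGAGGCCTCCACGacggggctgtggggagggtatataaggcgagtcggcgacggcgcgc
Selenos held CCACG 3 times, beginning 52, 33 and 18 bases before the start, and CCAAT at 2 places, 210 bases before it and, on the minus strand, 79. Selenok held CCACG at 1 place, 68 bases before the start, and no CCAAT. The whole element, searched on both strands, began 65 bases before the start of Hspa5. It was found in 0 of the 8 selenoprotein promoters, in 7 of the 16 ER chaperone and stress genes that had a value here and a promoter in the table, and in 0.113% of all 32851 promoters. The short CCACG was found in 3 of the 8 (Selenof, Selenok and Selenos), in 12 of those 16 and in 28.3% of all promoters. CCAAT was in 4 of the 8, all 16 and 33.8%.

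None of the 8 genes reached 2-fold in any of the 4 comparisons with wild type. Beside 0 of 8 in either direction, the percentages of all genes past 2-fold in A34 were 1.40% (higher) and 0.452% (lower). They were 2.78% and 3.10% in G37H, 2.51% and 3.96% in G37L, and 3.27% and 1.62% in DTrsp, again beside 0 of 8. With shares this small, 0 of 8 does not set these genes apart from all genes. At 1.5-fold, 6 of the 32 values passed: Selenoo higher in A34, Selenos and Selenov lower in G37H, Selenok higher in G37L, together with Selenoo and Selenov on the low side of that line. The share of all genes past 1.5-fold was not counted, so this count does not set the 8 genes apart. Over the 8 genes the median was -0.07 in A34, -0.25 in G37H, -0.12 in G37L and 0.03 in DTrsp, or -0.14, -0.14, -0.01 and -0.13 relative to the median of all genes. The mean over the 8 differed from the median in sign in A34 (0.02) and in DTrsp (-0.03). In G37H all 8 values were below 0, but 2 of them were above the median of all genes.

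**Figure D1:**
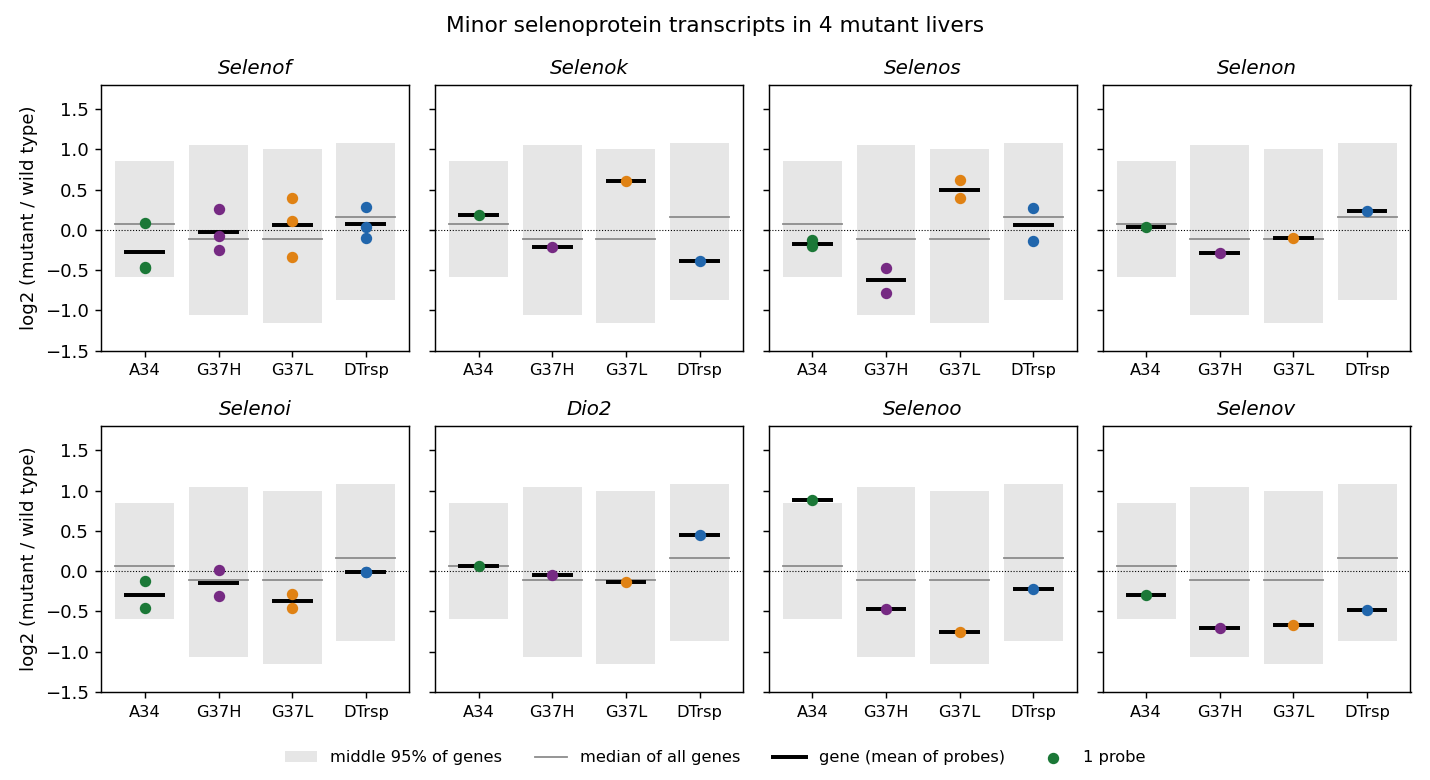
Each panel is 1 gene, with the log2 ratio of mutant over wild type on the y axis and the 4 mutant lines on the x axis. Points are single probes, black bars the mean of a gene's probes, grey lines the median of all genes and grey boxes the middle 95% of genes. Selenoo in A34, at 0.88, lies outside its box, and the 3 probes of Selenof in G37L spread from -0.34 to 0.39.

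Selenos stood at -0.17 in A34, -0.62 in G37H, 0.50 in G37L and 0.06 in DTrsp. It was lowest with 16 copies of the G37 transgene, at the 11.5 percentile of all genes, and highest with 2 copies, at the 90.2 percentile. With the ratio turned, the order would be the opposite, at the 88.5 percentile in G37H and the 9.8 percentile in G37L. Its probes read -0.47 and -0.78 in G37H and 0.62 and 0.39 in G37L. Both probes come from the same averaged arrays, so their likeness says nothing about the spread between animals. The probes lay on both sides of 0 in DTrsp, at -0.14 and 0.27. Single arrays appear to have been written in steps of 0.0001, so that the decimals of an average show how many arrays entered it, and the second DTrsp value rests on 3.

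Selenok, read by 1 probe, stood at 0.19 in A34, -0.21 in G37H, 0.61 in G37L and -0.39 in DTrsp. Its G37L value, 1.53-fold over wild type, was at the 93.1 percentile, and its DTrsp value at the 13.2 percentile. The order was G37L, A34, G37H and DTrsp. For Selenos it was G37L, DTrsp, A34 and G37H. Gaps between neighbouring lines were at most 0.42 for Selenok and 0.46 for Selenos, below the probe SD of a difference, which was 0.51 to 0.61. That SD was combined from the SDs of the 2 columns, so it takes no account of an offset that a probe shares between lines. From the highest to the lowest line the gap was 1.13 for Selenos, against an SD of 0.53, and 0.9989 for Selenok, against 0.60. These lines were picked as the extremes, so the SD of 1 fixed pair understates what sorting alone gives. A range that large or smaller was found in 77.1% of all genes for Selenos and in 69.6% for Selenok. Over all 8 genes 1 of 24 gaps between neighbouring lines was above its SD, the gap of 1.10 for Selenoo between A34 and DTrsp. Gaps between sorted neighbours are only parts of a gene's range and so tend to be small. No such count was made over all genes, so 1 of 24 does not set these 8 apart.

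Selenof was close to 0 in 3 lines, with -0.02 in G37H, 0.06 in G37L and 0.07 in DTrsp, and stood at -0.28 in A34, the 12.4 percentile. Its 3 probes did not share a sign in any line. In A34 they read 0.09, -0.47 and -0.46, and in G37L 0.39, -0.34 and 0.11. The range of the gene mean over the 4 lines was 0.35, smaller than the 0.73 between its own probes in G37L, and 9.1% of all genes had a range that small or smaller. The median range over all genes was 0.77.

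Selenon and Dio2 stayed near the middle of all genes in the transgenic lines. Selenon read 0.04 in A34, -0.29 in G37H, -0.10 in G37L and 0.24 in DTrsp, between the 33.1 and 57.4 percentiles. Dio2 read 0.06 in A34, -0.05 in G37H, -0.14 in G37L and 0.45 in DTrsp, the last at the 75.7 percentile and 0.29 above the median of all genes, which is inside the probe SD of that column. Columns were also centred on 94 hepatocyte marker, ribosomal protein and oxidative phosphorylation genes, called abundant transcripts here. They were picked by role, their abundance was not measured, and some were themselves high in G37L. Centred on these 94, whose median in DTrsp was 0.52, the DTrsp value of Dio2 was -0.07. Dio2 is known to be scarce in adult mouse liver, and these ratios do not show whether its probe measured a transcript there.

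Selenoi was below 0 in every line, with -0.29 in A34, -0.15 in G37H, -0.37 in G37L and -0.01 in DTrsp. Its 2 probes were both below 0 in A34 (-0.46 and -0.12), in G37L (-0.28 and -0.46) and in DTrsp (both -0.01), and lay on both sides of 0 in G37H (-0.31 and 0.02). Its A34 value was at the 11.8 percentile and the others between the 28.1 and 46.6 percentiles.

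Selenoo, outside the ER, had both the highest and the lowest of all 32 values. It stood at 0.88 in A34, -0.47 in G37H, -0.75 in G37L and -0.22 in DTrsp. The A34 value, 1.84-fold over wild type, was at the 97.8 percentile, and the G37L value, 0.59-fold, at the 9.1 percentile. Its range over the lines was 1.63, and 93.2% of genes had a range that large or smaller. The gene has 1 probe. The decimals show its G37L value to be an average over 4 arrays, and its A34 value one over 2 or 4.

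Selenov was below 0 in all 4 lines, with -0.29 in A34, -0.71 in G37H, -0.67 in G37L and -0.48 in DTrsp. It was the lowest of the 8 genes in G37H and in DTrsp, and lay between the 8.3 and 12.0 percentiles in the 4 lines. Its A34 value rests on 3 arrays by its decimals. Selenov is known mainly from testis, and these ratios do not show whether its probe measured a liver transcript.

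Differences between lines were taken gene by gene from the values against wild type, so each joins 2 averages with no measure of the spread between animals, and the sources used here do not say whether lines shared wild-type animals. A34 and G37L carried the same number of copies and differed in the changed base. Each is 1 averaged column, so the base cannot be told apart from other differences between the lines. Selenoo was 1.63 higher in A34 than in G37L, which is 3.10-fold, the single gene of the 8 at least 2-fold higher, beside 7.07% of all genes; 99.1% of genes had a difference that large or smaller. None of the 8 was at least 2-fold lower, beside 2.55% of all genes. The ER genes Selenos, Selenok and Selenof were lower in A34 than in G37L by log2 differences of -0.67, -0.42 and -0.34, against a median of 0.20 over all genes. Both probes of Selenos gave that sign (-0.82 and -0.52), and so did all 3 of Selenof, the farthest from 0 being -0.58 and the nearest -0.14. Selenon, Selenoi, Dio2 and Selenov lay between 0.08 and 0.38.

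G37H and G37L carried the same change in 16 and 2 copies. Copy number, too, cannot be told apart from other differences between these lines. Selenos was -1.13 in G37H relative to G37L, 0.46-fold, the single gene of the 8 at least 2-fold lower, beside 2.67% of all genes. Read as natural logs, 2 were, Selenos and Selenok. Both probes of Selenos passed 2-fold, at -1.16 and -1.09, and 1.9% of genes had a difference as low. With columns centred on abundant transcripts the value was -0.99, just short of 2-fold. Selenok followed at -0.82, at the 4.7 percentile. The remaining 6 genes lay between -0.19 and 0.28, and none of the 8 was 2-fold or more higher, beside 4.07% of all genes.

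Against the knockout, Selenoo was 1.10 higher in A34 than in DTrsp (2.14-fold), 1 of 8 at least 2-fold higher beside 4.48% of all genes. None of the 8 was 2-fold or more lower there, beside 4.09%, and 96.4% of genes had a difference as large as that of Selenoo or smaller. In G37H relative to DTrsp 0 of 8 passed 2-fold in either direction, beside 4.26% of genes higher and 8.93% lower. In G37L relative to DTrsp Selenok differed by 0.9989, just short of 2-fold, so that 0 of 8 were at least 2-fold higher beside 3.96% of genes and 0 lower beside 10.1%. Its difference was 1.27 with columns centred on their medians, which takes it past 2-fold, and 1.25 with columns centred on abundant transcripts. It also passed 2-fold with the values read as natural logs. As deposited, 96.0% of genes had a difference that large or smaller. The comparisons with DTrsp share its values: Selenok lay at 0.58, 0.17 and 0.9989 in A34, G37H and G37L relative to it, and Dio2 at -0.39, -0.50 and -0.59.

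**Figure D2:**
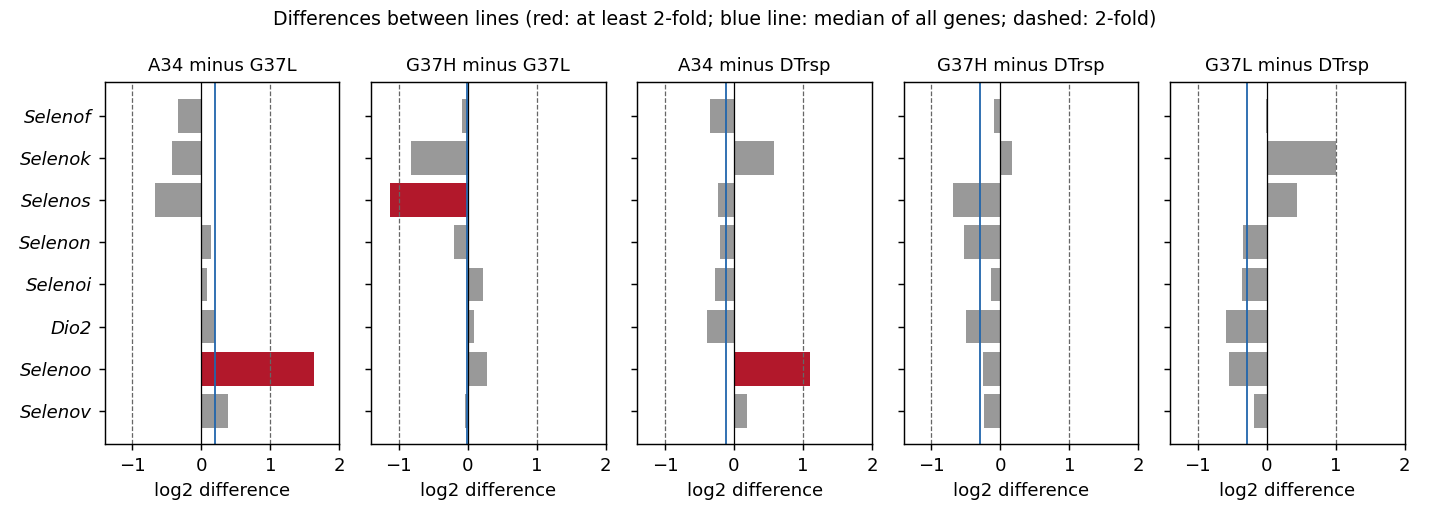
Each panel is the difference between 2 lines in log2 ratio (x axis) for the 8 genes (rows). Bars in red are at least 2-fold: Selenoo at 1.63 in A34 minus G37L and at 1.10 in A34 minus DTrsp, and Selenos at -1.13 in G37H minus G37L; blue lines are the median of all genes.

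Part of the list of ER chaperones and unfolded protein response genes was high in the same line as Selenos and Selenok. Of 18 measured genes of that list 1 was at least 2-fold higher in A34, 0 in G37H, 10 in G37L and 1 in DTrsp, and 0 were lower in any line. Of all genes, 1.40%, 2.78%, 2.51% and 3.27% were at least 2-fold higher in that order of lines. These shares, and those for lower genes given above, also stand beside the counts of the lists that follow. The medians of the ER chaperone list were 0.24 in A34, 0.24 in G37H, 1.22 in G37L and 0.31 in DTrsp. The secreted ER proteins Creld2 and Manf stood at 0.62 and 0.39 in G37H and at 3.11 and 2.35 in G37L. The chaperone partner Sdf2l1 was at 0.55 in G37H and 1.90 in G37L, and Hspa5 at 0.00 and 1.78. The stress-response genes Ddit3, Atf4 and Herpud1 were not high in G37L, at -0.01, 0.13 and 0.27, nor were the chaperone Canx at -0.25 and the co-chaperone Dnajc3 at 0.13. In the difference G37H minus G37L the list had a median of -0.93, with 15 of 18 genes below 0. Of the 18, 8 were at least 2-fold lower, beside 2.67% of all genes. Selenos at -1.13 and Selenok at -0.82 lay near the list median, and Selenof at -0.08 near that of all genes, which was -0.01. The values behind these differences were unlike: in G37H the list median was 0.24, while Selenos was at -0.62 and Selenok at -0.21.

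The ERAD machinery, with which Selenos and Selenok work, was not high as a group in G37L. Of 18 measured genes 1 was at least 2-fold higher, the ubiquitin ligase Syvn1 at 1.76, and the median was 0.10, or 0.21 above that of all genes. The next values were Ube2g2, a ubiquitin-conjugating enzyme, at 0.66, the channel protein Derl1 at 0.52 and the Vcp-binding Ubxn4 at 0.47. Vcp itself stood at 0.31, below Selenok and Selenos. In DTrsp the order was different, with Vcp at 1.10 and Derl1 at 0.80 against 0.06 for Selenos and -0.39 for Selenok. The lectin Os9 was at -1.07 there. In A34 Herpud1, which is on both lists, was at 1.28.

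Lists tied to the other genes had medians within 0.47 of that of all genes in every line. Of 11 glycoprotein folding genes, the setting of Selenof, 1 was at least 2-fold higher in A34 (glucosidase subunit Ganab at 1.26) and 1 in G37L (the oxidoreductase Pdia3 at 1.35), and the Selenof partner Uggt1 lay between 0.29 and 0.58 in the 4 lines. For Selenon, the calcium pump Atp2a2 read -0.27 in A34, 0.48 in G37H, 0.67 in G37L and 0.36 in DTrsp. Of the 6 measured genes of the palmitoylation and calcium list, 1 was at least 2-fold higher, the calcium channel Ryr1 at 1.83 in G37H. For Selenoi, 9 genes of phosphatidylethanolamine and phosphatidylcholine synthesis had medians of 0.14 in A34, 0.05 in G37H, -0.35 in G37L and 0.46 in DTrsp. Of these 9 genes 1 was at least 2-fold higher in A34, 1 in G37H and 0 in the other lines, and 0 were lower. The enzyme just before Selenoi in its pathway, Pcyt2, was at 1.16 in A34, where Selenoi was at -0.29, and the choline kinase Chka at 1.20 in G37H.

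Of 13 genes of thyroid hormone handling and response, set beside Dio2, 0 were at least 2-fold higher in A34 and G37H and 2 in each of G37L and DTrsp, and 2, 2, 1 and 1 were lower in A34, G37H, G37L and DTrsp. The thyroxine carrier Serpina7 had opposite signs among the lines, with -1.44 in A34, -1.38 in G37H, 1.88 in G37L and 1.70 in DTrsp. Another deiodinase, Dio1, stood at 0.76 in A34, -0.51 in G37H, -0.15 in G37L and -0.67 in DTrsp. The thyroid-responsive genes Thrsp and Me1 and the gluconeogenic enzyme gene G6pc were below 0 in the 3 transgenic lines and above it in DTrsp. Thrsp read -0.33 in A34, -0.87 in G37H, -1.16 in G37L and 0.43 in DTrsp, and Me1 -0.97, -0.27, -0.76 and 1.65. G6pc read -1.02, -1.15, -0.99 and 0.19 in the same order. Thra, on the same list, had these signs too, at -0.04, -0.67, -0.17 and 0.02. Other genes of the list did not have them. Bcl3 was above 0 in every line, with 0.30 in A34, 0.21 in G37H, 1.03 in G37L and 0.13 in DTrsp. Slc16a10 read -0.41, -0.18, 0.66 and -1.01 in that order, and Gpd2 0.28, -0.19, -0.05 and 0.12. The range of Dio2 over the lines was 0.59, and that of 31.3% of genes was as small or smaller. Of the 8 measured mitochondrial redox genes, set beside Selenoo, the reductase Gsr was at 1.69 in DTrsp and Txnrd2, also a selenoprotein, at -1.53 in G37H and -1.42 in G37L. Of the 12 measured selenocysteine synthesis and insertion factors 1 was at least 2-fold higher in each line and 1 lower in G37L, with medians of 0.18 in A34, -0.08 in G37H, -0.14 in G37L and 0.10 in DTrsp.

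**Figure D3:**
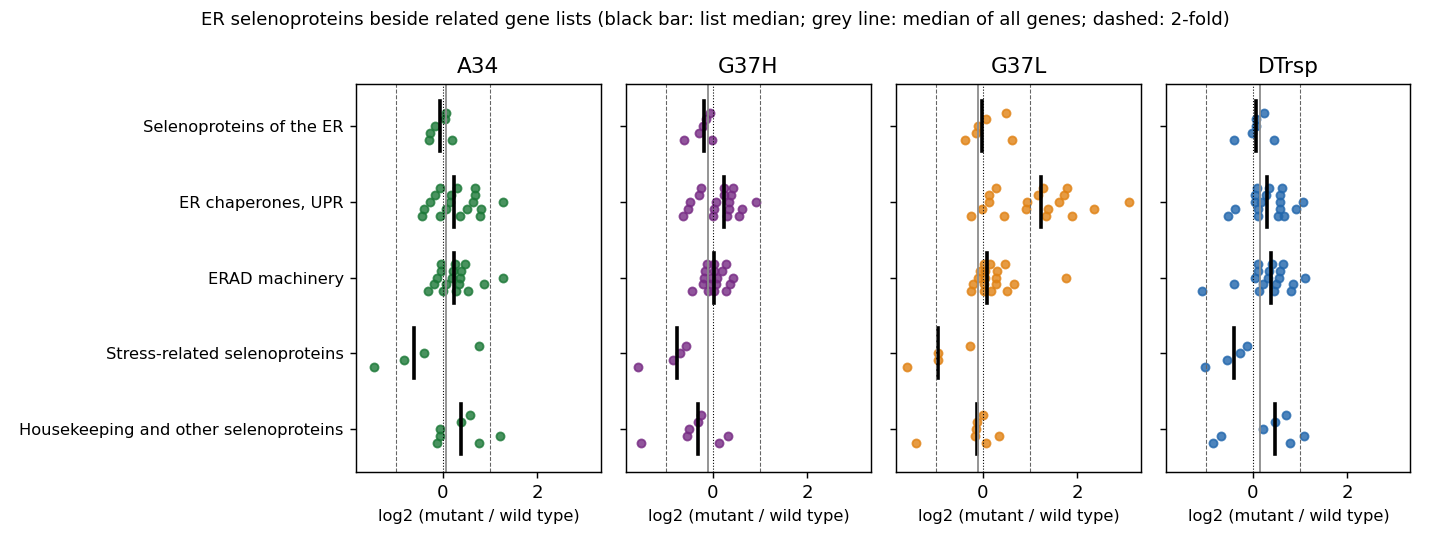
Each panel is 1 line, with the log2 ratio of mutant over wild type on the x axis and 5 gene lists as rows. Points are genes, black bars list medians (for the ER selenoproteins -0.07 in A34, -0.18 in G37H, -0.02 in G37L and 0.07 in DTrsp), grey lines the median of all genes and dashed lines 2-fold. In G37L the ER chaperones reach 3.11 while the 6 ER selenoproteins span -0.37 to 0.61.

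Of the 11 other selenoproteins measured, 3 passed 2-fold in at least 1 line, Selenow, Txnrd2 and Sephs2, against 0 of these 8 and 15.6% of all genes. Another 4 (Selenot, Txnrd3, Selenoh and Selenom) had no named probe. The 4 stress-related ones (Gpx1, Gpx3, Selenow and Msrb1) had medians of -0.62 in A34, -0.77 in G37H, -0.96 in G37L and -0.41 in DTrsp. Selenow was at -1.47, -1.59, -1.60 and -1.02 in that order of lines, Gpx1 at -0.83, -0.57, -0.95 and -0.55, and Gpx3 at -0.40, -0.85, -0.96 and -0.12. Of the 8 genes 1 lay above all 4 stress-related genes in A34, where Msrb1 was at 0.77, and 6 did in G37H, 5 in G37L and 5 in DTrsp. Selenov, at -0.71 in G37H and -0.67 in G37L, lay within the stress-related range in both lines.

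The 7 other measured selenoproteins had medians of 0.38 in A34, -0.31 in G37H, -0.12 in G37L and 0.48 in DTrsp. The mitochondrial thioredoxin reductase Txnrd2 stood at -0.07 in A34, -1.53 in G37H, -1.42 in G37L and -0.85 in DTrsp. The selenium donor synthetase Sephs2 was at 1.21 in A34 and 1.09 in DTrsp. In A34 the high value of Selenoo, 0.88, lay beside Sephs2 and Dio1. In G37H the values were -0.54 for Gpx2, 0.14 for Gpx4, -0.31 for Txnrd1 and 0.32 for Selenop.

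The nearest patterns were found by Euclidean distance over the 4 log2 ratios, among named genes that are not predicted transcripts, with the 2 nearest kept. For Selenos they were the RNA-binding Rbm14 (distance 0.17) and the signalling regulator Rapgef2 (0.19). For Selenok they were the growth factor receptor Egfr (0.18) and the ubiquitin-conjugating Ube2s (0.24), and for Selenoo the urea cycle enzyme Asl (0.17) and Dglucy (0.19). Asl read 0.77 in A34, -0.53 in G37H, -0.86 in G37L and -0.25 in DTrsp. Selenov had Vps18 (0.16) and Cyb5rl (0.19). The flatter Selenof, Selenon, Selenoi and Dio2 had Oxnad1, Musk, Higd1a and Ndufa13 nearest, at 0.08 or 0.09, with Wtap, Anks1, Ube2d1 and Efnb1 next, at 0.09 or 0.10.

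The liver's own cell types were checked by their markers. Of 15 Kupffer cell and macrophage markers, 3 were at least 2-fold higher in A34, 3 in G37H, 4 in G37L and 0 in DTrsp, with medians of 0.67, 0.48, 0.72 and 0.26. The 15 hepatocyte markers had medians of 0.34, 0.57, 0.58 and 0.56 in the same order, and 3 of them were at least 2-fold higher in G37L and 0 in the other lines. Those 3 were the fibrinogen chains Fga, Fgb and Fgg, at 1.61, 1.51 and 1.68. Medians were, for the 8 endothelial markers, 0.26, 0.27, 0.00 and 0.57, and for the 8 stellate cell markers 0.24, -0.03, 0.05 and -0.39. Medians of the 3 lymphocyte markers measured were -0.15, -0.40, -0.67 and 0.57, those of the 2 neutrophil markers 0.19, 0.47, 0.85 and 0.28, and those of the 2 cholangiocyte markers 0.45, -0.16, -0.32 and 0.29. Their part in the values of the 8 genes was not tested.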

How the data were processed

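Liver RNA (15 µg, Trizol) was copied from oligo-dT, coupled to Cy3 or Cy5 and hybridised with 1 animal per array, per the labels. The deposited values are log2 ratios as read here (mutant over wild type), averaged by the authors over 3 or 4 animals, per the labels. The sources used here do not give normalization, background correction, spot filters, dye swaps or the logarithm's base. Decimals show that at least 13.5% of averages in A34, 14.4% in G37H, 5.77% in G37L and 14.0% in DTrsp rest on fewer arrays.

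Probes were named through the platform annotation and the RefSeq gene table of GRCm38.p6 (12984 by gene identifier, 63 by the annotation's symbol). The 110 probes with several genes and 2321 not listed were left unnamed. Probes of a gene were averaged, giving 9285 genes in Python 3.11.15 with pandas 2.3.3. Promoters came from RefSeq, with all 8 genes matched. The functions were tested on simulated data.

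With 1 averaged value per line no test was run. The members and gene lists were chosen with earlier results of these data known. Genes named are every member, the 2 nearest patterns of each and the other selenoproteins. Up to 4 members of a list with the largest values are also named. Vcp, Uggt1, Atp2a2, Os9, Pcyt2, Chka, Thrsp, Me1, G6pc, Ddit3, Atf4, Canx and Dnajc3 were named for their role or after their values were seen. So were Thra, Bcl3, Slc16a10 and Gpd2. Alternatives were other thresholds, centring, scaling, probe summaries and the logarithm's base. The number of arrays limits the precision.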

Additional observations from a re-analysis of the deposited data

Results flagged for a closer look

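Selenoo and Selenos had opposite signs against wild type in lines that differed by at least 2-fold. For Selenoo the difference was 1.63 in A34 minus G37L and 1.10 in A34 minus DTrsp. For Selenos it was -1.13 in G37H minus G37L. With 1 averaged value per line, none of these 3 differences was tested. No group had 4 or more samples, so no sample could be compared with the rest of its group.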

How the results depend on the processing

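The counts of genes past 2-fold against wild type moved from 0 under some settings. Shares of all genes were counted at 2-fold on the values as deposited only, so the counts under other settings have no share to stand beside. Genes at least 2-fold higher in A34 numbered 1 when each column's median absolute deviation was set to that of DTrsp, 1 when values were read as natural logs and 1 at a 1.5-fold threshold. Genes lower in G37H numbered 1 as natural logs and 2 at 1.5-fold. In G37L 1 gene was higher at 1.5-fold, and lower genes numbered 1 with columns centred on abundant transcripts, 1 as natural logs and 2 at 1.5-fold. At 3-fold all counts were 0, as they must be when none passed 2-fold. The median of the 8 genes in DTrsp was -0.49 when centred on abundant transcripts, against 0.03 as deposited, because that centring subtracts 0.52 from the column. The median of the 8 in A34 minus G37L was 0.11 as deposited, -0.08 with columns centred on their medians, -0.16 with each probe counted and -0.13 over the 6 ER genes, an alternative chosen after seeing the data. In G37H minus G37L it was -0.06 as deposited and 0.08 with columns centred on abundant transcripts. Of the alternatives for the counts and medians that answer a comparison, 102 kept their value within 1.5 times (counts) or within the SD between probes of a gene (medians) and 10 did not. Some of the 102 could not have changed: a count of 0 stays 0 at 3-fold, and the median of probes can move Selenof alone. The SD is one between probes of 1 gene, so a median of 8 genes that changed sign could still count as kept. The tally is therefore no measure of how firm the results are. For counts past 2-fold in the 5 differences between lines, 5 of 25 settings, added after seeing the data, gave another count. In G37H minus G37L 2 genes were lower as natural logs and 0 with columns centred on abundant transcripts, and in G37L minus DTrsp 1 was higher as natural logs and with either centring. No paired analysis was possible because each line has 1 averaged column, and for the same reason no animal could be left out in turn. Depth is unknown for these arrays, and signal over background was not used here.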
